A study of Homo sapiens with 95 samples.

Results

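FGFR1-overexpressing AALE cells were compared with HcRed control cells while both were exposed to a tobacco-related carcinogen. The comparison took every sample of these genotypes that had received cigarette smoke condensate (CSC, a concentrate of smoke particles), benzo(a)pyrene (BaP, a polycyclic aromatic hydrocarbon) or NNK (a tobacco-specific nitrosamine), which was 17 of the 95 samples of the series. AALE cells are a human line derived from bronchial epithelium and made immortal. The 8 FGFR1 samples were 2 with CSC (numbered 2 and 3), 3 with BaP and 3 with NNK, and the 9 HcRed samples were 3 with each chemical. CSC was given at 24 μg/ml, BaP at 173 μM and NNK at 490 μM, to cells that were confluent when exposed. HcRed denotes the empty vector with a red fluorescent reporter, and it is the stated control of the overexpression lines. A further 3 FGFR1 and 3 HcRed samples that received the solvent DMSO served as the background. RNA was read by sparse full length (SFL) sequencing, a pooled RNA-seq method in which every sample carries its own barcodes. No label says whether a line was 1 clone or a pool, or whether replicates came from separate cultures, so that p-values measure only the spread between these samples, which may be technical. A difference between the 2 genotypes cannot be told apart from a difference between 2 separately made lines.

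FGFR1 is a receptor tyrosine kinase at the cell surface that binds fibroblast growth factors (FGFs) with the help of heparan sulfate. Ligand binding brings 2 receptors together, and the kinase then signals through the adaptor FRS2 to the RAS-ERK and PI3K-AKT pathways and through phospholipase C gamma. Cells limit this signal by transcribing feedback inhibitors such as the DUSP phosphatases and the Sprouty and SPRED proteins. The FGFR1 gene is amplified in a part of lung squamous cell carcinomas, and the bronchial basal cell, which AALE cells resemble in their keratins, is regarded as a cell of origin of that cancer.

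The 17 libraries held between 287446 and 2116383 counted reads (median 781742), with a median of 757337.5 in the FGFR1 and 1005033 in the HcRed libraries. Levels are given as CPM, read counts scaled to a common library size with TMM factors, and 3 reads corresponded to between 1.43 and 10.1 CPM. Floors set at 3 reads cover counting error only. The FGFR1 library with BaP replicate 1 was the shallowest and the one with CSC replicate 3 the deepest. Reads of NRG1, which another line of the series overexpresses at 4757 to 6707 CPM, stood at 93.0 CPM (114 reads) in the FGFR1 library BaP replicate 2. They stood at 374 and 355 CPM in the FGFR1 libraries DMSO replicates 2 and 3, against 6.37 to 33.1 CPM in the 9 HcRed libraries. The part of these reads in other differences was not tested. Without BaP replicate 2, 1080 genes passed for FGFR1 versus HcRed over 3 carcinogens and 199 for FGFR1 versus HcRed with BaP, against 1357 and 287 with it. Whether reads of FGFR1 came from the transgene or from the cells' own gene cannot be told apart in counts per gene.

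FGFR1 itself, on chromosome 8, was far higher in every FGFR1 library. With CSC it stood at 1349 and 1254 CPM in the FGFR1 libraries and at 55.5, 55.9 and 62.2 CPM in the HcRed libraries. With BaP the FGFR1 libraries had 1090, 1148 and 1223 CPM against 44.9, 47.6 and 46.7 CPM. With NNK they had 1208, 1275 and 1386 CPM against 52.75, 59.3 and 72.0 CPM. The groups did not overlap, and the samples of each genotype stayed within a narrow band whatever the chemical. The fitted difference over the 3 carcinogens was 22.7-fold (log2 fold change 4.51, SE 0.079, limma-voom adjusted p = 2.1e-52), with log2 fold changes of 4.47 with CSC, 4.62 with BaP and 4.42 with NNK. With DMSO the 3 FGFR1 libraries had 1063, 1072 and 985 CPM and the HcRed libraries 49.9, 52.1 and 29.7 CPM.

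**Figure D1:**
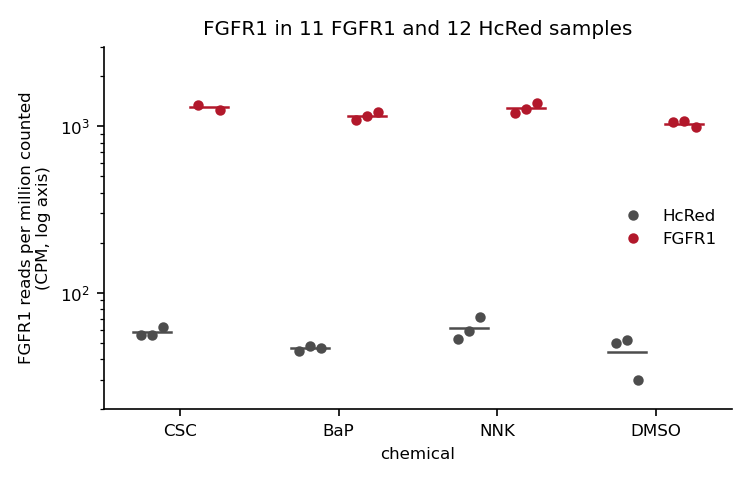
FGFR1 level in TMM-scaled CPM on a log axis, for the 11 FGFR1 and 12 HcRed libraries by chemical, with 1 point per library and a line at each group mean. Under the 3 carcinogens the FGFR1 libraries lie between 1090 and 1386 CPM and the HcRed libraries between 44.9 and 72.0 CPM.

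Besides FGFR1, the FGFR1 line was higher for 15 of 22 tested interferon-stimulated genes and 11 of 20 ATF4-responsive genes, and lower for 16 of 20 basal epithelial, 9 of 19 squamous and 14 of 23 cholesterol synthesis genes. Single genes with large differences included the calprotectin genes S100A8 and S100A9, which were lower, and the keratins KRT7 and KRT8, which were higher. Of 14309 genes with a mean count above 1 over the 17 libraries, 1357 (9.48%) passed an adjusted p of 0.05, with 666 higher (4.65%) and 691 lower (4.83%) in FGFR1. The median log2 fold change over all genes was -0.00133. The FGFR1 and HcRed libraries did not overlap within any chemical for 311 genes (2.17%). Calls refer to limma-voom with chemical as a covariate and Benjamini-Hochberg adjustment over all genes, log2 fold changes are FGFR1 minus HcRed, and CPM values are given as the lowest, the median and the highest library.

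The 12 largest rises by the naming rule held 6 genes known as interferon-stimulated. They were MX1 (log2 fold change 1.81), HERC5 (1.79), IFIT3 (1.60), IFI44 (1.49), APOL6 (1.41) and IFIT2 (1.41). The other rises included TENM3, a teneurin adhesion protein, at 33.6, 49.1 and 73.3 CPM in FGFR1 against 8.03, 10.8 and 20.9 CPM in HcRed (4.32-fold, adjusted p = 2.9e-15). FBN2, a fibrillin of matrix microfibrils, stood at 20.2, 39.0 and 62.7 CPM against 6.03, 9.78 and 19.3 CPM (3.78-fold, adjusted p = 8.9e-12). In both genes the lowest FGFR1 library lay above the highest HcRed library. FBXO32, a ubiquitin ligase subunit that rises in wasting muscle, stood at 65.2, 93.8 and 164 CPM against 21.7, 27.6 and 50.3 CPM (3.2-fold, adjusted p = 2.1e-18). The matrix glycoprotein gene SPARC rose 2.85-fold, DPYSL3, a cytoskeletal protein of growing axons, 2.55-fold and the guanine deaminase gene GDA 2.54-fold.

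The largest falls by the naming rule were those of PI3, S100A8 and S100A9. PI3 encodes elafin, an inhibitor of neutrophil elastase, and stood at 0, 0 and 2.65 CPM in FGFR1 (6 reads over 8 libraries) against 12.7, 17.9 and 32.1 CPM in HcRed (175 reads over 9 libraries). With CSC no PI3 read was counted in either FGFR1 library against 97 reads in the HcRed libraries, which makes it at least 25.6-fold lower when 3 reads over the FGFR1 group are taken as the floor. S100A8 and S100A9 encode the calprotectin subunits, which bind metals and accumulate at inflamed epithelia. S100A8 stood at 0, 3.36 and 5.11 CPM against 19.1, 24.8 and 44.7 CPM (8.32-fold lower, adjusted p = 5.0e-13). S100A9 stood at 17.9, 27.7 and 32.6 CPM against 114, 144 and 190 CPM (5.43-fold lower, adjusted p = 1.6e-25). No FGFR1 library reached the lowest HcRed library in any of the 3 genes. SLPI, a second secreted protease inhibitor of the airway, stood at 6.73, 10.9 and 26.0 CPM against 24.1, 35.6 and 59.5 CPM (2.85-fold lower, adjusted p = 6.0e-08), with an overlap between libraries of different chemicals but not within one.

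The remaining falls by the naming rule were a mixed set. GALNT5, a mucin-type glycosyltransferase, was 3.59-fold lower, the lipase-related gene PNLIPRP3 3.44-fold lower, and ALDH3A1, an aldehyde dehydrogenase induced through the aryl hydrocarbon receptor, 3.28-fold lower. The transcription factor gene HES2 was 2.17-fold, the ion channel gene TMEM63C 2.05-fold and VCAN, a matrix proteoglycan, 1.98-fold lower. CCND1 and KRT14 are described with their groups. Every one of these genes passed with an adjusted p of at most 6.16e-05, the value of HES2.

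**Figure D2:**
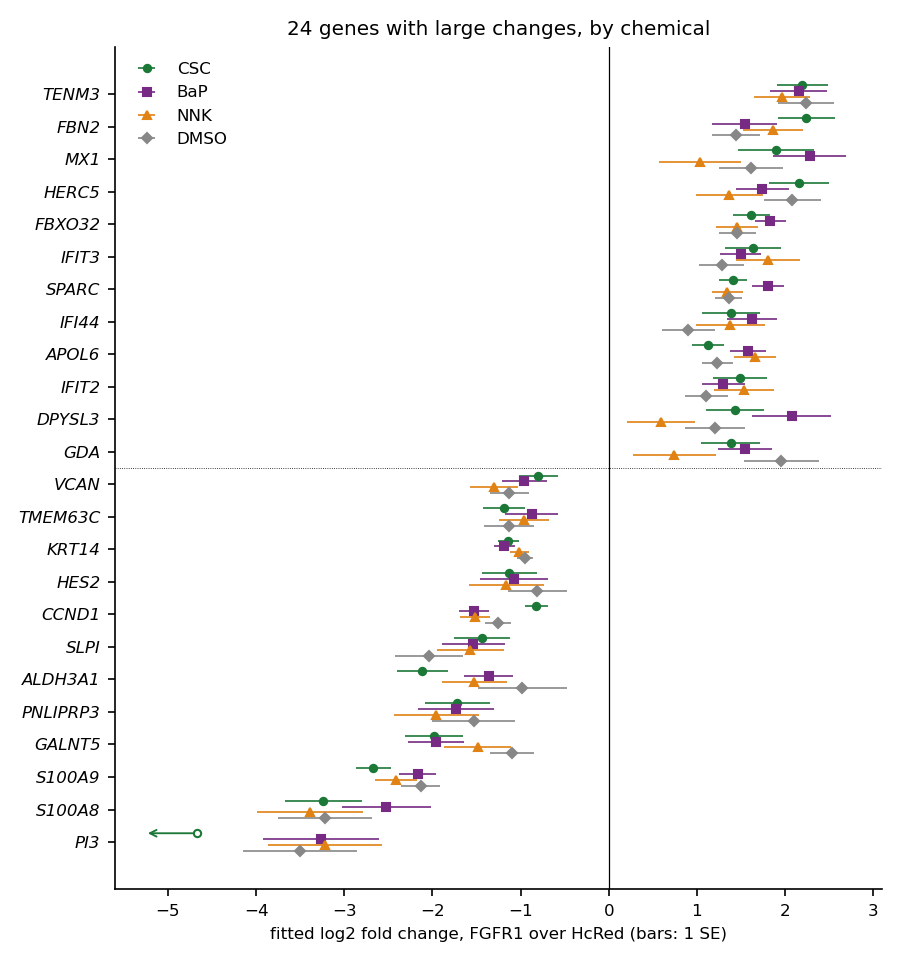
Fitted log2 fold change of FGFR1 over HcRed with CSC, BaP, NNK and DMSO (grey diamonds) for the 12 largest rises and 12 largest falls, with bars of 1 SE. The naming rule itself requires 1 direction under the 3 carcinogens, so that the shared direction of these 24 genes is not a result. The open circle with an arrow marks PI3 with CSC, where no FGFR1 read was counted and only a bound can be given.

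Both rises and falls occurred among other genes that receive and pass on the FGF signal. Of the 12 other receptors and co-receptors tested, 1 was higher and 1 lower, against 4.65% and 4.83% of all genes. SDC1, a heparan sulfate proteoglycan of the epithelial surface, stood at 289, 355 and 399 CPM against 400, 506 and 569 CPM (1.52-fold lower, adjusted p = 5.5e-13) without overlap between any libraries. GPC6, a glypican, was the higher one but rested on 31 reads in FGFR1 and 10 in HcRed (log2 fold change 1.63, adjusted p = 0.00995). The receptors FGFR2 (log2 fold change -0.14, adjusted p = 0.662) and FGFR3 (-0.14, adjusted p = 0.427) did not pass. Among 5 tested ligands and carriers, FGF2, the ligand stored in matrix, stood at 12.4, 18.2 and 37 CPM against 8.27, 10.5 and 17.1 CPM (1.68-fold higher, adjusted p = 0.00998). That call held without any single library and ended only when BaP replicates 1 and 2 were both left out, which leaves 1 FGFR1 library with BaP (adjusted p = 0.119). The FGF-binding carrier FGFBP1 was 1.24-fold lower (adjusted p = 0.0414), a call lost in 14 of 30 alternatives. Of 29 adaptors and core kinases of the RAS-ERK and PI3K pathways, none was higher and 2 were lower, AKT1 (log2 fold change -0.25, adjusted p = 0.0272) and SHC1 (-0.19, adjusted p = 0.0494). AKT1 lost its call in 7 and SHC1 in 22 of 30 alternatives, and DESeq2 called 0 of the 29 genes. The adaptor gene FRS2 had a log2 fold change of -0.08 (SE 0.108, adjusted p = 0.706).

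Some ERK feedback inhibitors were lower in the FGFR1 line and none was higher. All 15 tested members had a log2 fold change below 0, with a median of -0.43. As lower 4 passed and as higher none, against 4.83% and 4.65% of all genes. DUSP6, the phosphatase that removes phosphate from ERK in the cytoplasm, stood at 5.96, 14.2 and 34.5 CPM against 12.8, 27.6 and 76.2 CPM (1.86-fold lower, adjusted p = 4.1e-05). SPRED2, an inhibitor of RAF activation, stood at 26.9, 30.0 and 62.6 CPM against 37.2, 52.3 and 78.3 CPM (1.5-fold lower, adjusted p = 0.000389). DUSP4, a nuclear phosphatase, was 1.49-fold lower (adjusted p = 3.3e-06) and DUSP7 1.32-fold lower (adjusted p = 0.00739). SPRY2 (log2 fold change -0.58, adjusted p = 0.0794) and SPRY4 (-0.13, adjusted p = 0.767) did not pass. With CSC the DUSP6 libraries did not overlap, at 34.5 and 30.1 CPM against 53.8, 57.3 and 76.2 CPM, while they overlapped with BaP and with NNK. DUSP7 no longer passed without the FGFR1 library CSC replicate 3 (adjusted p = 0.0572).

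Of 25 tested transcription factors and early genes that respond to ERK, 5 were lower and 2 higher, against 4.83% and 4.65% of all genes. ETV5, an ETS factor, stood at 5.47, 22.9 and 53.1 CPM against 23.4, 51.6 and 81.7 CPM (1.79-fold lower, adjusted p = 0.000347). EPHA2, an ephrin receptor, stood at 53.3, 84.5 and 127 CPM against 115, 174 and 232 CPM (1.88-fold lower, adjusted p = 2.5e-11). MYC stood at 123, 162 and 194 CPM against 177, 210 and 270 CPM (1.41-fold lower, adjusted p = 5.4e-07). CCND1, the D-type cyclin that starts the passage through G1, stood at 53.5, 63.1 and 130 CPM against 142, 182 and 228 CPM (2.32-fold lower, adjusted p = 1.5e-15), and no FGFR1 library reached an HcRed library. CCND2, another D-type cyclin and not a member of any list, was chosen after its values were seen, because it passed with every chemical. It moved the other way, with 278, 317 and 365 CPM against 97.7, 128 and 177 CPM (2.43-fold higher, adjusted p = 3.7e-23). The 2 higher members were ATF3, a stress-response factor, at 15.9, 27.2 and 40.4 CPM against 2.32, 11 and 19.1 CPM (2.44-fold, adjusted p = 1.5e-06), and IER2 (1.25-fold, adjusted p = 0.0124). FOSL1 was the fifth lower member (1.39-fold, adjusted p = 0.036), a call lost in 14 of 30 alternatives. Of 12 EGF receptors and ligands, 3 were lower and none higher, against the same shares of all genes. The lower ones were EGFR (log2 fold change -0.25, SE 0.0399, adjusted p = 3.8e-06), its ligand EREG (-0.57, adjusted p = 3.5e-05) and its ligand TGFA (-0.44, adjusted p = 0.00421).

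Basal epithelial genes were lower almost throughout. Of 20 tested members, with a median of -0.39, 16 were lower and 2 higher, against 4.83% and 4.65% of all genes. KRT5 and KRT14 form the filaments that define basal cells. KRT14 stood at 152, 177 and 359 CPM against 328, 382 and 634 CPM (2.15-fold lower, adjusted p = 2.1e-21), and KRT5 at 2759, 3339 and 4597 CPM against 3288, 3889 and 5061 CPM (1.2-fold lower, adjusted p = 5.2e-10). KRT6A, a keratin of activated and wounded epithelium, stood at 1128, 1405 and 1484 CPM against 2057, 2593 and 2837 CPM (1.90-fold lower, SE 0.0312 on the log2 scale, adjusted p = 2.4e-35). Its FGFR1 and HcRed libraries lay far apart, including with DMSO. KRT6B (5.29-fold lower, adjusted p = 7.4e-06), KRT16 (2.09-fold lower, adjusted p = 1.1e-06) and KRT17 (1.55-fold lower, adjusted p = 3.2e-16) fell as well. KRT6A and KRT6B are near-identical, and KRT14, KRT16 and KRT17 resemble one another closely, so that how reads were divided among them is uncertain.

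Several genes that anchor the basal cell fell as well. ITGA6, the integrin of hemidesmosomes, stood at 389, 473 and 563 CPM against 635, 722 and 821 CPM (1.53-fold lower, adjusted p = 1.9e-15) with no overlap between libraries. Its partner ITGB4 did not pass (log2 fold change -0.02, adjusted p = 0.873). The laminin genes LAMA3 and LAMB3, which encode basement membrane proteins, fell by 0.40 and 0.44 on the log2 scale, with adjusted p of 1.6e-09 and 5.7e-09. TP63, the transcription factor that maintains basal cells, stood at 179, 202 and 231 CPM against 161, 192 and 214 CPM (log2 fold change 0.08, adjusted p = 0.572). The 2 higher members were KRT15 (1.77-fold, adjusted p = 0.00264), a keratin of resting basal cells, and the neurotrophin receptor gene NGFR (1.55-fold, adjusted p = 0.0169). KRT15 had a log2 fold change of -0.09 with CSC, 0.77 with BaP and 1.71 with NNK. The KRT15 call ended with DESeq2 (adjusted p = 0.11).

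Keratins of simple epithelium moved in both directions. KRT7 and KRT8 are in no list and were chosen after their values were seen, as genes that passed with every chemical. KRT7 stood at 421, 533 and 593 CPM against 167, 200 and 274 CPM (2.48-fold higher, adjusted p = 3.0e-26). KRT8 stood at 202, 245 and 279 CPM against 92.3, 98.5 and 139 CPM (2.29-fold higher, adjusted p = 2.1e-21). In both, all FGFR1 libraries lay above all HcRed libraries. KRT19, another simple-epithelial keratin, was 1.34-fold lower (adjusted p = 1.4e-09).

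Squamous differentiation genes, which build the cornified envelope of surface cells, were scarce in these cells and scarcer in the FGFR1 line than in HcRed. Of 32 listed genes 19 were tested and 8 had a mean count of at least 10. Among the 19, with a median of -0.66, 9 were lower and 1 higher, against 4.83% and 4.65% of all genes. SPRR1B, a cross-linked envelope protein, had 6 reads over the 8 FGFR1 libraries and 157 over the 9 HcRed libraries, where it stood at 9.98, 16.5 and 25.1 CPM (log2 fold change -3.82, SE 0.391, adjusted p = 1.1e-11). SBSN, a suprabasal secreted protein, stood at 0, 0.92 and 6.73 CPM against 6.90, 10.6 and 34.8 CPM (log2 fold change -2.88, adjusted p = 1.1e-07). IVL, the main precursor of the envelope, had 3 reads against 23, and CNFN 6 against 35. SPRR1A had no read in FGFR1 and 28 reads in HcRed, in 7 of the 9 libraries, which makes it at least 7.74-fold lower. KRT1, the keratin of the suprabasal epidermis, had none against 24 reads in 6 of the 9 libraries, at least 6.63-fold lower. The kallikrein proteases KLK7 (2.17-fold, adjusted p = 0.0105) and KLK10 (2.05-fold, adjusted p = 0.00908) were lower, and KLK6 was the higher member (2.08-fold, adjusted p = 0.0482). KRT10 stood at 23.6, 31.9 and 50.7 CPM against 46.1, 53.1 and 61.5 CPM (1.41-fold lower, adjusted p = 0.00542). KLK6 lost its call in 16, IVL in 7 and CNFN in 6 of 29 alternatives. The KLK10 call ended without the FGFR1 library CSC replicate 3 (adjusted p = 0.0905). A2ML1, an epithelial protease inhibitor of suprabasal cells that is in no list and was chosen after its values were seen, stood at 0, 0.239 and 1.99 CPM against 6.71, 10.6 and 16.6 CPM (log2 fold change -3.44, adjusted p = 2.5e-09). Against 4.83% of all genes lower and 4.65% higher, 7 of 23 epithelial junction genes were lower and 1 higher. The desmosome genes DSP (1.19-fold lower), PKP1 (1.19-fold lower) and JUP (1.16-fold lower) were among them, with the adherens junction gene CDH1 (1.15-fold lower, adjusted p = 0.00141), while EPCAM was 1.27-fold higher (adjusted p = 0.00264).

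**Figure D3:**
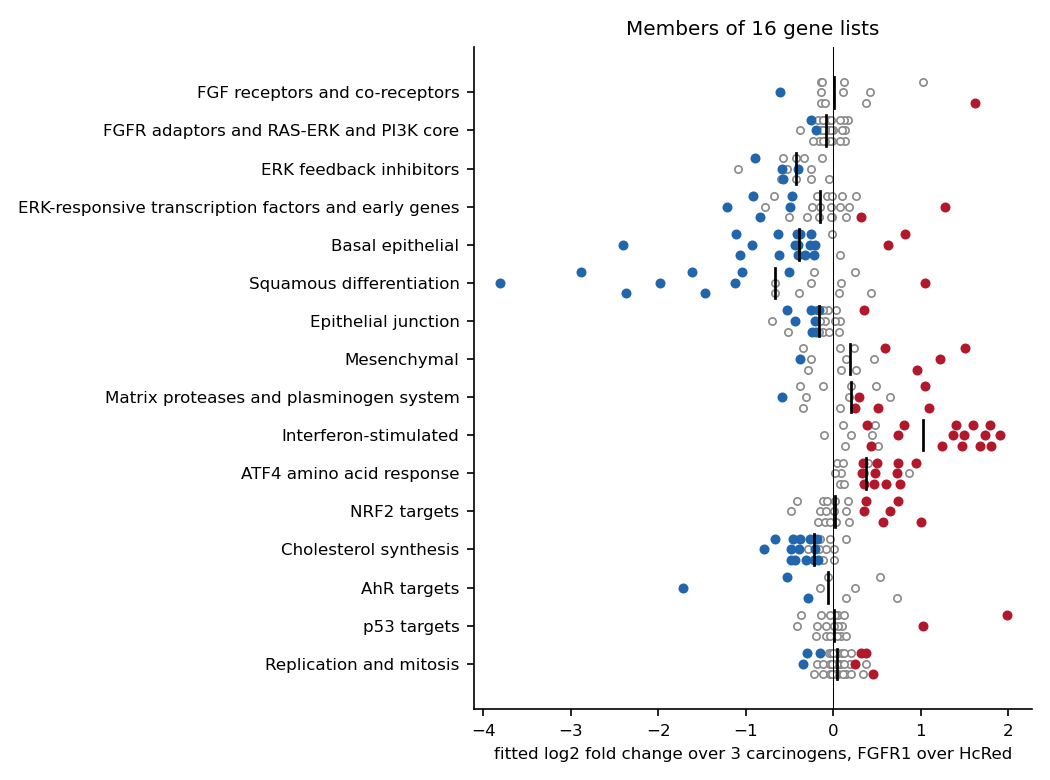
Fitted log2 fold change over the 3 carcinogens for every tested member of 16 gene lists, with red points for members that passed as higher in FGFR1, blue for those that passed as lower, open grey for those that did not pass, and a black bar at each median. Interferon-stimulated genes have a median of 1.03, and the basal and squamous lists have medians of -0.39 and -0.66.

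Mesenchymal and matrix genes were partly higher. Of 14 tested mesenchymal genes 4 were higher and 1 lower, against 4.65% and 4.83% of all genes. VIM, the filament protein of mesenchymal cells, stood at 57.2, 92.3 and 105 CPM against 25.7, 37 and 70.1 CPM (2.33-fold, adjusted p = 4.3e-12). FN1, fibronectin, stood at 629, 1045 and 1211 CPM against 459, 622 and 903 CPM (1.51-fold, adjusted p = 3.3e-15). SPARC stood at 111, 137 and 163 CPM against 33.5, 47.2 and 59.3 CPM (2.85-fold, adjusted p = 1.1e-19), with every FGFR1 library above every HcRed library. CDH2, N-cadherin, passed narrowly (1.95-fold, adjusted p = 0.0437) and lost its call in 17 of 29 alternatives. SNAI2, a repressor of epithelial genes, was lower (1.3-fold, adjusted p = 0.00224), and the repressor gene ZEB1 had at most 9 reads in any library and a log2 fold change of -0.28 (adjusted p = 0.742). Of 15 genes of matrix proteases and the plasminogen system, 5 were higher and 1 lower, against the same shares of all genes. TIMP2, an inhibitor of metalloproteases, stood at 74.0, 95.8 and 116 CPM against 32.5, 42.0 and 59.9 CPM (2.14-fold, adjusted p = 1.3e-12) without overlap. Its relative TIMP3 was 1.49-fold lower (adjusted p = 1.0e-05). The plasminogen activators PLAT (2.07-fold, adjusted p = 0.000686) and PLAU (1.43-fold, adjusted p = 0.00431) and the membrane protease MMP14 (1.19-fold, adjusted p = 0.0128) were higher. MMP14 lost its call only when the FGFR1 libraries BaP replicates 1 and 2 were both left out (adjusted p = 0.0691).

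Interferon-stimulated genes, which cells use to restrict viruses, formed the list with the largest share of rises. Against 4.65% of all genes higher and 4.83% lower, 15 of 22 tested members were higher and none lower. Of the 22 members 21 had a log2 fold change above 0, and the median was 1.03. Their summed level was 768, 939 and 1169 CPM in FGFR1 against 547, 633 and 755 CPM in HcRed, so that the 2 groups did not overlap. Type I interferon acts on these genes through the factor ISGF3, which binds promoter elements that repeat the letters GAAA. The promoters of 6 members that passed are shown because they hold this repeat, searched as GAAA, any 2 bases and GAAA again, or on the other strand as TTTC, any 2 bases and TTTC again. Each line gives 100 bases that lie 170 to 71 bases before the gene's start in RefSeq on GRCh38.p14, 5′ to 3′ on the gene's strand, with the matches in capitals. Neighbouring matches may overlap.
IFIT1, chr10:89392453-89392552, plus strand: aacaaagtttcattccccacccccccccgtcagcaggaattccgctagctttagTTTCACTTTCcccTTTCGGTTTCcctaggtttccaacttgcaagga
IFIT3, chr10:89327827-89327926, plus strand: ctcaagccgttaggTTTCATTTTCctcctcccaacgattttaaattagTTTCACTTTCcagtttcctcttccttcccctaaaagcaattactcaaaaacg
ISG15, chr1:1013327-1013426, plus strand: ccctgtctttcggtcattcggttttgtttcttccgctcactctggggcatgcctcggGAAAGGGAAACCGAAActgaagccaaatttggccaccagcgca
HERC5, chr4:88456949-88457048, plus strand: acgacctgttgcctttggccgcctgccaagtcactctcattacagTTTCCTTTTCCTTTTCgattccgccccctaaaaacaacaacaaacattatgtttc
IFIH1, chr2:162318755-162318854, minus strand: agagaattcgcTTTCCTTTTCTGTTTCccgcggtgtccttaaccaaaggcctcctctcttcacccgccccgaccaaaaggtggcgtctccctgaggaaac
IFI6, chr1:27672263-27672362, minus strand: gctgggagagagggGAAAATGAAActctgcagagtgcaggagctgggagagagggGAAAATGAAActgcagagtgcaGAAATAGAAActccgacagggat
RefSeq promoter windows were found for 15 of the 22 tested members. In the 250 bases before the start, 11 of these 15 genes held the repeat, and all 11 had passed as higher. The repeat occurred in 2.41% of the 15405 windows of all tested genes and in 3.27% of the 10631 genes. A match is a description of these letters, and binding was not measured.

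The IFIT proteins bind foreign RNA. IFIT3 stood at 30.7, 45.9 and 81.2 CPM against 5.02, 16.3 and 31.9 CPM (3.04-fold, adjusted p = 1.5e-11), and IFIT2 at 28.1, 39.7 and 66.9 CPM against 6.02, 14.0 and 24.9 CPM (2.66-fold, adjusted p = 8.8e-10). IFIT1 stood at 10.9, 14.7 and 31.0 CPM against 1.40, 8.28 and 12.1 CPM (2.78-fold, adjusted p = 1.2e-05). All FGFR1 libraries lay above all HcRed libraries for IFIT2, those of IFIT3 overlapped between but not within chemicals, and those of IFIT1 also overlapped with NNK. MX1, a GTPase that blocks influenza viruses, stood at 10.6, 23.9 and 37.5 CPM against 2.12, 6.90 and 10.7 CPM (3.51-fold, adjusted p = 2.9e-07). HERC5, the ligase that attaches the ubiquitin-like ISG15, stood at 20.5, 37.8 and 50.5 CPM against 6.62, 8.50 and 16.4 CPM (3.46-fold, adjusted p = 7.1e-11), and ISG15 itself at 13.7, 16.4 and 25.9 CPM against 3.01, 7.13 and 16.3 CPM (2.59-fold, adjusted p = 5.0e-05). The sensors of viral RNA DDX58 (RIG-I, 1.76-fold, adjusted p = 2.8e-06) and IFIH1 (MDA5, 1.68-fold, adjusted p = 0.000113) rose as well. DDX60, a helper of RIG-I that is in no list and was chosen after its values were seen, rose 2.48-fold (adjusted p = 1.4e-14). The transcription factor genes STAT2 (log2 fold change 0.20, adjusted p = 0.188) and IRF9 (0.12, adjusted p = 0.786) did not pass. Within single chemicals 7 members passed as higher with CSC, 12 with BaP and 6 with NNK, against 1.39%, 1.11% and 0.727% of all genes. Without the FGFR1 library BaP replicate 2, IFIT5 (adjusted p = 0.0871) and IFI44L (adjusted p = 0.0805) no longer passed, and IFIT5 did not pass without HcRed BaP replicate 2 either (adjusted p = 0.0586).

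**Figure D4:**
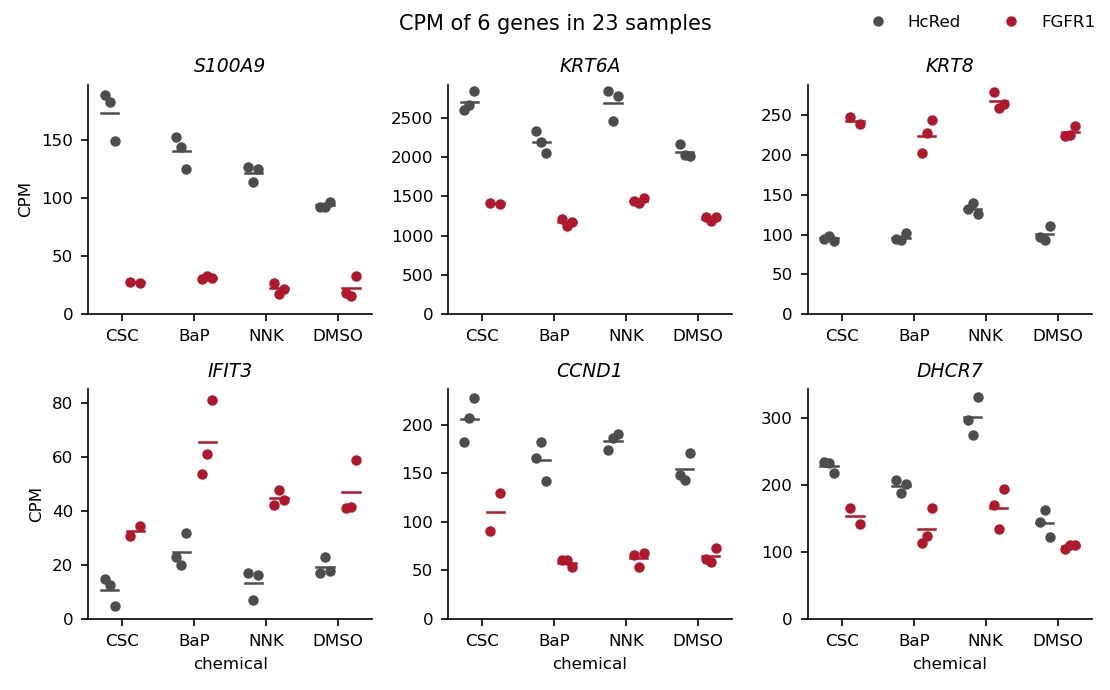
Level in TMM-scaled CPM of S100A9, KRT6A, KRT8, IFIT3, CCND1 and DHCR7 in all 23 FGFR1 and HcRed libraries by chemical, 1 point per library, with a line at each group mean. S100A9 lies at 17.9 to 32.6 CPM in the FGFR1 libraries with a carcinogen and at 114 to 190 CPM in the HcRed libraries, and the separation of the genotypes also holds with DMSO for KRT6A, KRT8 and CCND1.

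Inflammatory cytokines and chemokines showed 1 rise and 1 fall among 12 tested genes, against 4.65% and 4.83% of all genes. IL1RN, the antagonist of the interleukin-1 receptor, stood at 0, 4.07 and 8.20 CPM against 9.29, 13.3 and 18.1 CPM (2.87-fold lower, adjusted p = 0.000125) without overlap. CXCL3 passed as higher (adjusted p = 0.0449) on at most 4 reads in any library and lost its call in 19 of 29 alternatives.

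Amino acid and stress-response genes of ATF4, the factor that is translated when amino acids run short or the unfolded protein response is active, were higher. Of 20 tested members 11 were higher and none lower, against 4.65% and 4.83% of all genes. All 20 had a log2 fold change above 0 with a median of 0.38. Among them were enzymes of serine and folate metabolism. PHGDH, the first enzyme of serine synthesis, stood at 178, 216 and 256 CPM against 114, 141 and 199 CPM (1.52-fold, adjusted p = 4.0e-08), and PSAT1, the second, at 148, 230 and 272 CPM against 130, 170 and 190 CPM (1.39-fold, adjusted p = 4.2e-06). ALDH1L2, a mitochondrial folate enzyme, stood at 108, 146 and 156 CPM against 64.2, 84.1 and 105 CPM (1.66-fold, adjusted p = 2.5e-09), with no overlap. ATF4 itself was 1.26-fold higher (adjusted p = 0.00128), CHAC1, which degrades glutathione, 1.92-fold higher (adjusted p = 0.000106) and DDIT3 1.70-fold higher (adjusted p = 0.0119). BCAT1, a branched-chain aminotransferase that is in no list and was chosen after its values were seen, stood at 79.4, 97.4 and 111 CPM against 36.1, 46.1 and 64.2 CPM (2.08-fold, adjusted p = 2.4e-12). Matches of TGATGNAA, a core of the element that ATF4 binds with C/EBP partners, were found in 2 of the 15 members with a RefSeq window. These were CHAC1 and ASNS, against 2.38% of all tested genes with a window, and ASNS did not pass (adjusted p = 0.297).

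Genes that NRF2 activates against oxidants rose in part. Of 21 tested members, with a median of 0.03, 6 were higher and none lower, against 4.65% and 4.83% of all genes. SLC7A11, the cystine importer, which ATF4 also activates, stood at 232, 303 and 403 CPM against 107, 196 and 285 CPM (1.67-fold, adjusted p = 1.0e-12). The ferritin chains FTL, at 488, 769 and 1097 CPM against 279, 475 and 758 CPM (1.57-fold, adjusted p = 2.7e-17), and FTH1, at 637, 926 and 1317 CPM against 439, 606 and 879 CPM (1.49-fold, adjusted p = 2.7e-17), rose together. Both have many processed pseudogenes that can take their reads. SQSTM1, an autophagy receptor that is in no list and was chosen after its values were seen, rose 1.55-fold (adjusted p = 6.1e-14). NQO1 (log2 fold change 0.14, adjusted p = 0.164) and GCLM (0.18, adjusted p = 0.132), 2 defining NRF2 targets, did not pass.

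Cholesterol synthesis genes, which the factor SREBF2 drives when sterols are low, were lower. Of 23 tested members, with a median of -0.22, 14 were lower and none higher, against 4.83% and 4.65% of all genes. DHCR7, the last enzyme of cholesterol synthesis, stood at 114, 154 and 194 CPM against 188, 233 and 332 CPM (1.59-fold lower, adjusted p = 1.1e-10). MVD, an enzyme of the mevalonate pathway, stood at 57.2, 71.4 and 127 CPM against 82.4, 116 and 230 CPM (1.73-fold lower, adjusted p = 3.75e-09). Libraries of these genes overlapped between chemicals but not within one. The sterol element TCACNCCAC was found before 1 of 17 members with a window, against 1.1% of all tested genes with a window. That member, SREBF2, did not pass (log2 fold change -0.04, adjusted p = 0.781).

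Genes that answer the chemicals themselves differed in some members. CSC and BaP activate the aryl hydrocarbon receptor (AhR). Of 9 tested AhR targets 3 were lower in FGFR1 and none higher, against 4.83% and 4.65% of all genes. The 3 lower calls were also counted in every alternative, while the number of higher members ran from 0 to 2 and was 2 with edgeR and with the GC correction, and without the FGFR1 library CSC replicate 3 or the HcRed library CSC replicate 1. CYP1B1, an oxidase that activates BaP, stood at 179, 605 and 703 CPM against 270, 883 and 1014 CPM (1.44-fold lower, adjusted p = 8.4e-13). ALDH3A1 stood at 6.18, 18.8 and 30.3 CPM against 29.9, 49.6 and 86.1 CPM (adjusted p = 1.45e-11), and ALDH1A3 was 1.22-fold lower (adjusted p = 0.0027). CYP1A1, the best known AhR target, stood at 32.8, 345 and 393 CPM against 33.1, 239 and 447 CPM and did not pass (log2 fold change 0.25, adjusted p = 0.0591). The low ends of CYP1B1 and CYP1A1 belong to NNK in both genotypes. Of 20 p53 targets 2 were higher and none lower, against 4.65% and 4.83% of all genes. GDF15, a secreted stress cytokine, stood at 6.18, 18.1 and 25.9 CPM against 1.43, 4.02 and 8.27 CPM (3.96-fold, adjusted p = 3.1e-07), while CDKN1A (log2 fold change 0.11, adjusted p = 0.32) and MDM2 (0.05, adjusted p = 0.685) did not pass.

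Of 36 replication and mitosis genes 4 were higher and 3 lower, against 4.65% and 4.83% of all genes. Their median log2 fold change was 0.04. RRM2, a subunit of ribonucleotide reductase, was 1.37-fold higher (adjusted p = 6.1e-08) and the helicase subunits MCM5 and MCM7 1.3-fold and 1.19-fold higher, whereas the mitotic kinases BUB1 and PLK1 were 1.27-fold and 1.23-fold lower. MKI67 stood at 1228, 1500 and 1551 CPM against 1396, 1637 and 1791 CPM (1.11-fold lower, adjusted p = 0.00633). The checkpoint kinase gene CHEK1, chosen after its values were seen, was 1.77-fold higher (adjusted p = 4.6e-08). Of 23 glycolysis and hypoxia genes 3 were higher and 2 lower, against the same shares of all genes, with a median of 0.03. GAPDH was 1.2-fold higher (adjusted p = 9.7e-09). GAPDH also has many pseudogenes.

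Effects common to the 3 carcinogens were counted from the contrasts within each chemical. With CSC 401 genes passed (2.8%), with BaP 287 (2.01%) and with NNK 227 (1.59%). These counts and their order depend on the processing, and with DESeq2 they were 107, 99 and 119. Leaving out HcRed replicate 1 of the same chemical gave 260 with CSC, 132 with BaP and 100 with NNK. The CSC count fell further without FGFR1 CSC replicate 3, in a fit that holds 1 FGFR1 library with CSC. By direction the main counts were 1.39% of genes higher and 1.41% lower with CSC, 1.11% and 0.895% with BaP, and 0.727% and 0.86% with NNK. The 3 contrasts compare different samples but take their spread from 1 fit of all 17 libraries, so that they are not independent tests. CSC and BaP shared 141 genes, which is 35.2% of the CSC and 49.1% of the BaP genes. CSC and NNK shared 124 (30.9% and 54.6%), and BaP and NNK shared 106 (36.9% and 46.7%), with none in opposite directions. The 3 chemicals together shared 85 genes (0.594% of those tested), 47 higher (0.328%) and 38 lower (0.266%). They included FGFR1, KRT5, KRT6A, KRT7, KRT8, KRT14, KRT17, KRT19, S100A8, S100A9, PI3, SLPI, SPRR1B, ITGA6, SDC1, CCND1, CCND2, TENM3, FBN2, SPARC, VIM, FN1, IFIT2, IFIT3, HERC5, FTL, FTH1, SLC7A11, CYP1B1 and DHCR7. The AXL receptor kinase gene was also common (1.60-fold higher over the 3 carcinogens, adjusted p = 1.1e-07), as were the WNT antagonist SFRP1 (1.49-fold lower, adjusted p = 1.7e-11) and the surface glycoprotein CD24 (1.39-fold lower, adjusted p = 8.9e-11), which were chosen after their values were seen. The count fell to 49 without the FGFR1 library CSC replicate 3, to 48 without FGFR1 BaP replicate 2 and to 55 without HcRed NNK replicate 1.

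Very few effects could be tied to 1 chemical. In all, 428 genes passed with 1 chemical and with neither of the others, 221 with CSC (1.54%), 125 with BaP (0.874%) and 82 with NNK (0.573%). Of these 428, 351 had the same sign under all 3 chemicals, and for only 1 (0.00699% of genes tested), COL7A1, did the difference between the chemicals itself pass. How many of all genes tested had the same sign under all 3 chemicals was not counted. The interaction of genotype and chemical passed for 3 of 14309 genes (0.021%, with 688 or 4.81% at an unadjusted p under 0.05), KRT17 (adjusted p = 0.00071), COL7A1 (adjusted p = 0.0475) and PLEC (adjusted p = 0.0475). The effect with CSC differed from the mean effect with BaP and NNK for 3 genes (0.021%), KRT17 and COL7A1 as lower (0.014%) and HSP90AA1 as higher (0.00699%), with 799 or 5.58% at an unadjusted p under 0.05. No gene passed the corresponding test for BaP (965 or 6.74% at an unadjusted p under 0.05) or for NNK (678 or 4.74%), with limma-voom and equally with edgeR and DESeq2. Without the FGFR1 library BaP replicate 2, 7 genes passed the test for BaP and 10 the interaction.

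KRT17, a keratin of stressed basal cells, fell most with CSC. Its HcRed libraries stood at 2041, 1813 and 1656 CPM with CSC, 1816, 1600 and 1674 CPM with BaP and 2094, 1943 and 1753 CPM with NNK. The FGFR1 libraries stood at 959 and 941 CPM with CSC, 1285, 1161 and 1236 CPM with BaP and 1685, 1555 and 1371 CPM with NNK. The FGFR1 libraries were lower with every chemical, at a log2 fold change of -0.96 with CSC, -0.51 with BaP and -0.38 with NNK. The CSC effect was lower than the mean of the other 2 by 0.51 (95% interval -0.67 to -0.35, adjusted p = 0.000136). With DMSO the log2 fold change was -0.38. The difference did not pass without the FGFR1 library CSC replicate 3 (-0.49, adjusted p = 0.797), nor with DESeq2 (-0.55, adjusted p = 0.0854).

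COL7A1 encodes the collagen of the fibrils that anchor the basement membrane. With CSC it stood at 632 and 448 CPM in FGFR1 against 768, 706 and 752 CPM in HcRed, with BaP at 764, 631 and 670 CPM against 648, 555 and 759 CPM, and with NNK at 1054, 1136 and 824 CPM against 1049, 981 and 999 CPM. Both FGFR1 libraries were lower with CSC, while the genotypes overlapped with BaP and NNK. The log2 fold changes were -0.57 with CSC (adjusted p = 6.8e-06), 0.08 with BaP and -0.08 with NNK, and the CSC effect was lower than the mean of the others by 0.56 (SE 0.111, adjusted p = 0.0167). The difference was -0.22 without FGFR1 CSC replicate 3, the deepest library, and did not pass (adjusted p = 1).

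HSP90AA1, a stress-inducible chaperone, stood with CSC at 2236 and 2756 CPM in FGFR1 against 2148, 2653 and 2741 CPM in HcRed, which overlapped. With BaP it stood at 2096, 2183 and 1723 CPM against 2934, 2932 and 2063 CPM, and with NNK at 2144, 1924 and 2152 CPM against 2565, 2402 and 2594 CPM. The log2 fold changes were 0.05, -0.47 and -0.27, and the CSC effect was higher than the mean of the others by 0.42 (SE 0.0834, adjusted p = 0.0167). That difference was 0.21 without FGFR1 CSC replicate 3 (adjusted p = 1). PLEC, the plakin that links keratins to hemidesmosomes, had log2 fold changes of -0.11 with CSC, 0.02 with BaP and -0.31 with NNK. With NNK its FGFR1 libraries stood at 4112, 4747 and 4541 CPM and its HcRed libraries at 5507, 5269 and 5734 CPM, without overlap. By DESeq2 no gene passed the interaction or the CSC difference.

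**Figure D5:**
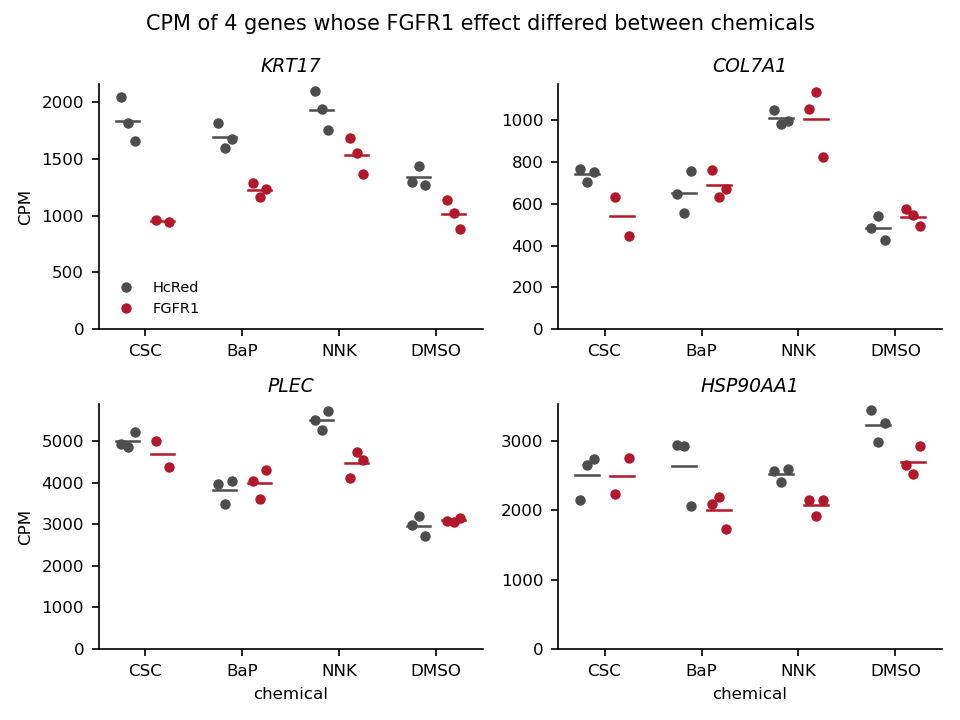
Level in TMM-scaled CPM of KRT17, COL7A1, PLEC and HSP90AA1 in the 23 FGFR1 and HcRed libraries by chemical, 1 point per library. KRT17 is lower in FGFR1 under every carcinogen and lies at 941 and 959 CPM with CSC, and with CSC both FGFR1 libraries of COL7A1 lie below the 3 HcRed libraries.

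With the solvent DMSO, in samples that enter none of the comparisons above, 210 of 14347 genes (1.46%) passed, 129 higher (0.899%) and 81 lower (0.565%) in FGFR1. The fit that gave these calls took its spread from the carcinogen libraries as well. All 85 genes common to the 3 carcinogens had the same sign with DMSO, and 65 of them passed there, which is 31% of the DMSO genes. S100A9 stood at 18.3, 15.75 and 33.0 CPM in the FGFR1 libraries and 92.8, 92.5 and 97.1 CPM in the HcRed libraries with DMSO (log2 fold change -2.13, against -2.44 under carcinogens). KRT6A stood at 1231, 1190 and 1231 CPM against 2160, 2023 and 2007 CPM (log2 fold change -0.77, against -0.93). For the interferon-stimulated list 7 members passed as higher with DMSO, and HERC5 (log2 fold change 2.08) and MX1 (1.61) were among them while IFIT1 (0.21, adjusted p = 0.88) was not. The cholesterol list had 1 lower member, SC5D (-0.64, adjusted p = 0.018), against 4 with CSC, 5 with BaP and 7 with NNK. The basal list had 12 lower and 2 higher members with DMSO. The squamous list had 1 lower member with DMSO, SPRR1B, and a median of -0.05. Single carcinogens gave 3 lower with CSC, 2 with BaP and 2 with NNK, with medians of -0.97, -0.63 and -0.62. The 9 lower members and the median of -0.66 come from the fit over 3 carcinogens, which holds more libraries. No ERK feedback inhibitor passed with DMSO, against 2 lower with CSC, 2 with BaP and 0 with NNK. The ATF4 list had 2 higher members with DMSO, against 6, 5 and 2. Of the AhR targets 2 were higher with DMSO, CYP1A1 (adjusted p = 0.012) and NQO1 (0.52, adjusted p = 0.0125), and none was lower. The mean effect under carcinogens differed from the effect with DMSO for no gene by limma-voom (663 or 4.62% at an unadjusted p under 0.05), for 2 by edgeR and for none by DESeq2. Without the FGFR1 libraries DMSO replicates 2 and 3, which held the most NRG1 reads, 66 genes passed with DMSO, in a fit that holds 1 FGFR1 library with DMSO and takes its spread from the other groups.

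Because HcRed is a single control line, each of the 2 lines was also set against the 6 other lines of the series (labelled NRF2, NRG1, PIK3CA, CDKN2A, FAT1 and GFP) under the same carcinogens, a comparison chosen after the results were seen. Both comparisons use the same 17 libraries as above, and their values are given side by side. Against the 6 lines 2289 of 14309 genes passed in FGFR1 (16%), 1533 higher and 756 lower, and 2175 in HcRed (15.2%), 1438 higher and 737 lower. For the interferon-stimulated genes 17 of 22 were higher and none lower in FGFR1, while 1 was higher and 1 lower in HcRed. The FGFR1 median was below that of another line for IFIT1 (14.7 against 26.1 CPM), IFIT2 (39.6 and 118), IFIT3 (45.8 and 54.7) and IFI44 (30.5 and 57.8). It was above all 6 lines for others, such as MX1 (23.9 against at most 18.6 CPM) and HERC5 (37.8 and 36.6). Cholesterol genes were lower for 14 of 23 and higher for 1 in FGFR1, and 3 were higher and 3 lower in HcRed. ERK feedback inhibitors were lower for 4 of 15 and higher for none in FGFR1, and 2 were higher and none lower in HcRed.

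In the squamous and basal lists the larger counts belonged to HcRed. HcRed was higher than the 6 lines for 14 of 19 squamous genes and FGFR1 for 5, with none lower in either. Of all 14309 genes 1438 were higher and 737 lower in HcRed, and 1533 and 756 in FGFR1. For the basal list HcRed was higher for 15 of 20 and lower for 2, while FGFR1 was higher for 5 and lower for 8. KRT14 was above the mean of the 6 lines in both, with a log2 fold change of 0.25 in FGFR1 and 1.35 in HcRed. So were KRT17 (0.33 and 0.95), KRT5 (0.16 and 0.41) and VCAN (0.74 and 1.75). The highest median CPM among the 6 lines still exceeded that of FGFR1 for KRT14 (296 against 176) and KRT17 (2108 and 1261). The same held for KRT5 (3974 and 3340) and VCAN (92.2 and 22.6). S100A9 was lower in FGFR1 (-0.42, adjusted p = 0.014) and higher in HcRed (1.99), and S100A8 did not differ beyond the test in FGFR1 (-0.15, adjusted p = 0.8) and was higher in HcRed (2.89). PI3 was -1.18 in FGFR1 (adjusted p = 0.037) and 3.02 in HcRed. Of the 24 largest rises and falls, 17 passed with the same sign in FGFR1 against the 6 lines. PNLIPRP3 (-0.06 in FGFR1, 1.73 in HcRed), SLPI (0.39, 1.90), GALNT5 (-0.42, 1.38) and TMEM63C (-0.18, 0.82) did not pass in FGFR1 and were higher in HcRed. ALDH3A1 (-0.52, 1.14), CCND1 (-0.49, 0.79) and HES2 (-0.58, 0.53) were lower in FGFR1 and higher in HcRed. The median CPM of S100A9 in the 6 other lines ran from 10.5 to 175. The ATF4 list had 8 higher and none lower in FGFR1, and 1 higher and 8 lower in HcRed. Of the largest rises, SPARC was above the mean of the 6 lines in both (3.82 and 2.29). FBN2 was higher in FGFR1 (1.75) and not in HcRed (-0.14, adjusted p = 0.69), and TENM3 was higher in FGFR1 (0.51) and lower in HcRed (-1.61). In each of these genes the highest median CPM among the 6 lines exceeded that of FGFR1. The values were 213 against 137 for SPARC, 48.0 against 38.9 for FBN2 and 75.5 against 49.0 for TENM3.

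The labelled cell type was checked against markers. Basal markers were abundant in all 17 libraries, with a summed level of 11470 to 15380 CPM in FGFR1 and 15170 to 19080 CPM in HcRed. Of 8 fibroblast markers 3 were tested and none passed, with sums of 26.9 to 43.7 CPM against 19.3 to 38.9 CPM. No endothelial marker of 6 reached the count minimum, and 1 had no read in any library (sums 1.73 to 7.67 CPM against 0 to 5.70 CPM). Of 7 leukocyte markers 2 were tested and none passed, and 2 had no read in any library (sums 12.1 to 32.5 CPM against 5.52 to 32.3 CPM). Of 10 ciliated and secretory airway markers 4 were tested and 4 had no read, and only TUBB4B, a widely expressed tubulin, passed (1.18-fold lower, adjusted p = 0.00203). The overexpressed genes of the other lines, NRG1, PIK3CA and NRF2 (NFE2L2), did not pass over the 3 carcinogens in the main fit. Their log2 fold changes were 0.63 (adjusted p = 0.102), -0.11 (adjusted p = 0.549) and -0.15 (adjusted p = 0.141). Within single chemicals 1 of the 3 genes passed as higher with BaP and 1 with DMSO. Over the 3 carcinogens 1 passed as higher with edgeR, with quality weights and with the replicate block, also within chemical. NRG1 stood at 93.0 CPM in the FGFR1 library BaP replicate 2 and at 374 and 355 CPM in DMSO replicates 2 and 3. In bulk RNA fewer cells of a type and less RNA per cell cannot be told apart.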

How the data were processed

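The authors trimmed reads with cutadapt 1.12, checked them with FastQC 0.11.5, aligned them to hg19 with STAR 2.5.2b and assigned them to RefSeq genes with featureCounts of Subread. They deposited 1 raw count per gene and sample, without normalization, for 27978 listed genes. Use of molecular identifiers and of strand in the counting is not given in the sources used here, so that reads need not be independent molecules and overlapping and antisense genes cannot be told apart. Groups came from the sample labels.

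Genes with a mean count above 1 over the 17 samples were scaled by TMM (edgeR 4.0.16, R 4.3.3). Genotypes were tested by limma-voom (limma 3.58.1, 2-sided), p-values were adjusted by Benjamini-Hochberg over every gene fitted, and 0.05 was the threshold. The main fit had genotype and chemical as terms. Contrasts within a chemical, their differences and the interaction came from 6 group means, and those with DMSO from 8 group means over 23 samples. Against the 6 other lines, the mean of FGFR1 or of HcRed within each carcinogen was compared with the mean of those lines. Replicate libraries were all distinct (chi-square per degree of freedom 1.21 to 1.80 over 22 pairs). The tests were first run on simulated counts.

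Named genes were FGFR1, the 12 largest rises and 12 largest falls, the corresponding genes of 1 chemical, and members of the gene lists. The rises and falls were drawn from genes past 0.05 whose mean count reached 10. Their genotypes also did not overlap within any carcinogen and differed in the same direction under all 3. The comparison, its members and the lists, which come from general knowledge, were chosen with earlier results of these data known. FGFR1 was left out of the counts of its list. Promoter sequences are RefSeq's on GRCh38.p14, a build other than that of the files, and serve as sequence only. Other motif letters were searched on both strands of the same windows. The main fit was repeated with DESeq2 1.42.0, the quasi-likelihood test of edgeR, median-ratio size factors, both laxer and stricter count minimums, a joint fit of all 95 samples, a block for replicate number, a correction for GC content (known for 93.7% of genes), sample quality weights and leaving out each library. Leaving out pairs of libraries was added after the data were seen. Some list members are not reported here by name.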

Additional observations from a re-analysis of the deposited data

Results flagged for a closer look

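The effect of FGFR1 overexpression differed between the carcinogens by a test of the difference itself for 4 genes. For KRT17 the interaction of genotype and chemical had an adjusted p of 0.00071 and the effect with CSC minus the mean effect with BaP and NNK was -0.51 on the log2 scale. For COL7A1 these values were 0.0475 and -0.56. For PLEC the interaction had an adjusted p of 0.0475, and for HSP90AA1 the difference with CSC was 0.42. None of the 3 CSC differences passed without the FGFR1 library CSC replicate 3, with an adjusted p of 0.797 for KRT17 (difference -0.49) and 1 for COL7A1 (-0.22) and HSP90AA1 (0.21). That fit holds 1 FGFR1 library with CSC, which is assumed to vary like the other groups. Groups of 2 or 3 libraries are too small for a test of single libraries that stand apart.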

How the results depend on the processing

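The count of genes past 0.05 over the 3 carcinogens was 1357 and ran from 978 (DESeq2) to 1588 (all 95 samples) over the alternatives, with 1028 without FGFR1 BaP replicates 1 and 2. Counts within single chemicals and of differences between them varied more, and the cause was not tested. With DESeq2, 107 genes passed with CSC, 99 with BaP, 119 with NNK, 107 with DMSO and 39 with all 3 chemicals, and none passed the interaction (0) or the CSC difference (0). The interaction had 1 gene with edgeR, in the fit of all 95 samples, with the GC correction and when the mean count had to reach 10. The carcinogen minus DMSO difference had 2 genes with edgeR and 1 with a mean count of at least 10 or with the GC correction. The CSC difference had 1 gene with a mean count of at least 10. The NNK difference had 1 gene when every gene with 1 read was kept, with the GC correction and with quality weights. Without FGFR1 BaP replicates 1 and 2, 115 genes passed with BaP and 37 with all 3 chemicals, and without FGFR1 DMSO replicates 2 and 3, 66 passed with DMSO. Each of these 2 fits holds a single FGFR1 library in the tested group, which is assumed to vary like the other groups.

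Replicate numbers did not pair the samples, with correlations of the deviations of same-numbered libraries between -0.0696 and 0.152 and 2 of 8 over 0.1. With the replicate block 1226 genes passed over the 3 carcinogens, 1436 with the block within chemical, and 1 gene passed the NNK difference. The block with the GC correction gave 1 gene for the NNK difference and 1 for the carcinogen minus DMSO difference.

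Leaving out 1 library at a time gave 1031 to 1378 genes over the 3 carcinogens, 78 to 449 with CSC, 132 to 307 with BaP, 100 to 248 with NNK, 48 to 80 with all 3 chemicals, 88 to 228 with DMSO, 1 to 10 for the interaction, and 0 to 4, 0 to 7 and 0 to 2 for the CSC, BaP and NNK differences, and 0 to 1 for the carcinogen minus DMSO difference. Libraries that moved a count by over 1.5 times were FGFR1 CSC replicate 3 (78) and HcRed CSC replicate 1 (260) for CSC, FGFR1 BaP replicate 3 (177) and HcRed BaP replicates 1 and 2 (132 and 136) for BaP, and all 6 NNK libraries for NNK (100 to 149). For DMSO they were FGFR1 DMSO replicate 2 (133) and HcRed DMSO replicates 1 and 3 (88 and 113). The interaction rose to 10 and the BaP difference to 7 without FGFR1 BaP replicate 2. Of 149 named or called list genes, 108 stayed past 0.05 in every alternative, 41 lost the call in at least 1, and none turned its direction. By count alone, the basal list had 15 or 16 lower members, the interferon list 12 to 15 higher, the ATF4 list 10 to 12 higher, the cholesterol list 11 to 15 lower and the squamous list 2 to 11 lower, the 2 being of the 8 members whose mean count reached 10. Depth limits the genes near 3 reads per library.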
